A study of Homo sapiens with 16 samples.

Results

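The 10 genes MMP1, MMP2, MMP3, MMP8, MMP9, MMP10, MMP11, MMP12, MMP13 and MMP14, which encode matrix metalloproteinases (MMPs), were followed across 4 groups of cultured human mesenchymal stem cells (MSCs). They were taken by name from the 60649 gene identifiers of the deposited count table after the Ensembl identifiers had been matched to GENCODE symbols. MMP1, MMP3, MMP8, MMP10, MMP12 and MMP13 lie in a cluster of MMP genes on chromosome 11, and the other 4 genes lie on other chromosomes. These 6 are called the cluster genes here, and MMP7, MMP20 and MMP27 of the same region are not among them. The cluster genes were compared with MMP2 and MMP14, the most abundant of the 10 transcripts in untreated cells.

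All cells were of ASC52telo, an adipose MSC line that carries telomerase and so keeps dividing. Thus every value comes from a single line in culture and the 4 replicates of a group are not different donors. MmC-/GDF11- cells received neither agent, and the study calls them "young". MmC+/GDF11- cells were made senescent with 1.5 µg/mL mitomycin C (MmC), an agent that alkylates and crosslinks DNA, given for 18 h. MmC-/GDF11+ and MmC+/GDF11+ cells were kept in the same way but with recombinant growth differentiation factor 11 (GDF11), a ligand of the TGF-β superfamily, at 10 ng/mL over the following 10 days. Cells of all 4 groups, with or without GDF11, were collected after these 10 days. Poly(A) RNA of all 16 libraries was sequenced in the same run.

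The libraries held 71275337 to 144204979 counts. The libraries numbered replicate 1 stood apart from the others of their group: over the 19103 genes tested, their root mean square deviation from the group mean was 0.36 to 0.509 on the log2 scale, against 0.262 to 0.321 in the other 12. Changes without the replicate 1 libraries are therefore given as well. The 8 MSC markers (NT5E, THY1, ENG, CD44, ITGB1, PDGFRB, PDGFRA and COL1A1) were detected in every group, with a summed level of 11067 to 18056 CPM in MmC-/GDF11- and 7622 to 12712 CPM in MmC+/GDF11- libraries. The markers went both ways after mitomycin C without GDF11: NT5E and ITGB1 rose, PDGFRA, PDGFRB and COL1A1 fell and 3 did not pass the test, and COL1A1, at a mean of 6803 and 2610 CPM, made up much of the fall in the sum. CPM are counts scaled to a common library size, here after TMM, a correction for differences in library composition.

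MMPs are zinc-dependent endopeptidases that cut collagens, proteoglycans and other proteins of the extracellular matrix. Most are secreted as inactive proenzymes, are activated when the propeptide is cut away, and are blocked by tissue inhibitors of metalloproteinases (TIMPs). MMP1 and MMP3 are known members of the secretory phenotype of senescent cells, and the inducible MMP genes are known for a TATA box and an AP-1 element near the start of transcription, whereas MMP2 and MMP14 are known for steadier expression in mesenchymal cells.

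Promoters of 4 of the 10 genes (MMP8, MMP10, MMP11 and MMP14) were in the RefSeq table used here (GRCh38.p14), each running from 250 bases before to 50 bases after the start of transcription. A pair of cluster genes and MMP14 are shown to set the promoter of an inducible gene beside that of a steadily expressed one. Capitals mark an AP-1 element, searched as TGANTCA, and a TATA box, searched as TATAAA, on both strands. MMP10 (chr11:102780579-102780878, minus strand), MMP8 (chr11:102724905-102725204, minus strand) and MMP14 (chr14:22836335-22836634, plus strand) read as follows.
MMP10: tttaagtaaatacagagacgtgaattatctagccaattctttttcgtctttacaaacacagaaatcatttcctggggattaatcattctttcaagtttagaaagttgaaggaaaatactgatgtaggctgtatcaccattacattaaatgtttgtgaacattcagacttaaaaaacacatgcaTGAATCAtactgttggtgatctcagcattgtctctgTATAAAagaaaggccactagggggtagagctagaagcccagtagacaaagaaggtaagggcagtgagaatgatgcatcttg
MMP8: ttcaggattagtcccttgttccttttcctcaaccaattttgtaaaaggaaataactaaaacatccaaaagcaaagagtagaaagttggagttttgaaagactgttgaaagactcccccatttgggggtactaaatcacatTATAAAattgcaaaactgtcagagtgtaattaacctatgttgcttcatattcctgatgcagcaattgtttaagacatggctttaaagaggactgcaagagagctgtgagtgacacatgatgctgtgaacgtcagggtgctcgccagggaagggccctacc
MMP14: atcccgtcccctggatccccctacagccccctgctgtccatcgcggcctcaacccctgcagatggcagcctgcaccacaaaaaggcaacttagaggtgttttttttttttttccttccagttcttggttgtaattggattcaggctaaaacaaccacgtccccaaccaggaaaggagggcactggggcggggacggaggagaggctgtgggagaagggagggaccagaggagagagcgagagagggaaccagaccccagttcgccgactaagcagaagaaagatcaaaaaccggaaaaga
The MMP10 promoter held TGAATCA from 67 bases and TATAAA from 31 bases before the start. The MMP8 promoter held TATAAA from 110 bases before the start and no match to the AP-1 letters, and the MMP14 and MMP11 windows held neither. Of 35116 promoters of the same length, 7.71% held TGANTCA and 11.5% held TATAAA. GC content was 36.3% for MMP10, 40.7% for MMP8, 55.0% for MMP14 and 74.3% for MMP11, against a median of 58.7% over all promoters.

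Which MMP genes differed between senescent and young cells was asked first. After mitomycin C, the cluster genes, MMP2 and MMP14 were all higher, and among the genes with at least 10 counts in every library the rise without GDF11 ran from 1.56-fold (MMP14) to 140-fold (MMP3). 8 of the 10 genes passed the filter on low counts. All 8 were higher both without and with GDF11 by edgeR's quasi-likelihood test with Benjamini-Hochberg adjustment. In both comparisons every MmC+ library of each of these 8 genes lay above every MmC- library. MMP8, MMP10, MMP12 and MMP13 had fewer than 10 counts in each MmC- library. They were tested because of their MmC+ libraries, so nothing is read from the count of their calls or ranges. Their adjusted p are given as a description only. The 4 genes with at least 10 counts in every library were MMP1, MMP2, MMP3 and MMP14, all called higher without overlap. Of all genes tested, 22.9% and 23.4% were called higher, and 19.1% and 20.2% were higher in every library without overlap. Without replicate 1 in any group, all 8 genes were again called higher in both comparisons. No share over all genes is given for that fit, so nothing is read from this count. The log2 changes without and with GDF11 were then 4.16 and 3.99 for MMP1, 7.51 and 7.51 for MMP3, 1.36 and 1.38 for MMP2, and 0.71 and 0.70 for MMP14.

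**Figure D1:**
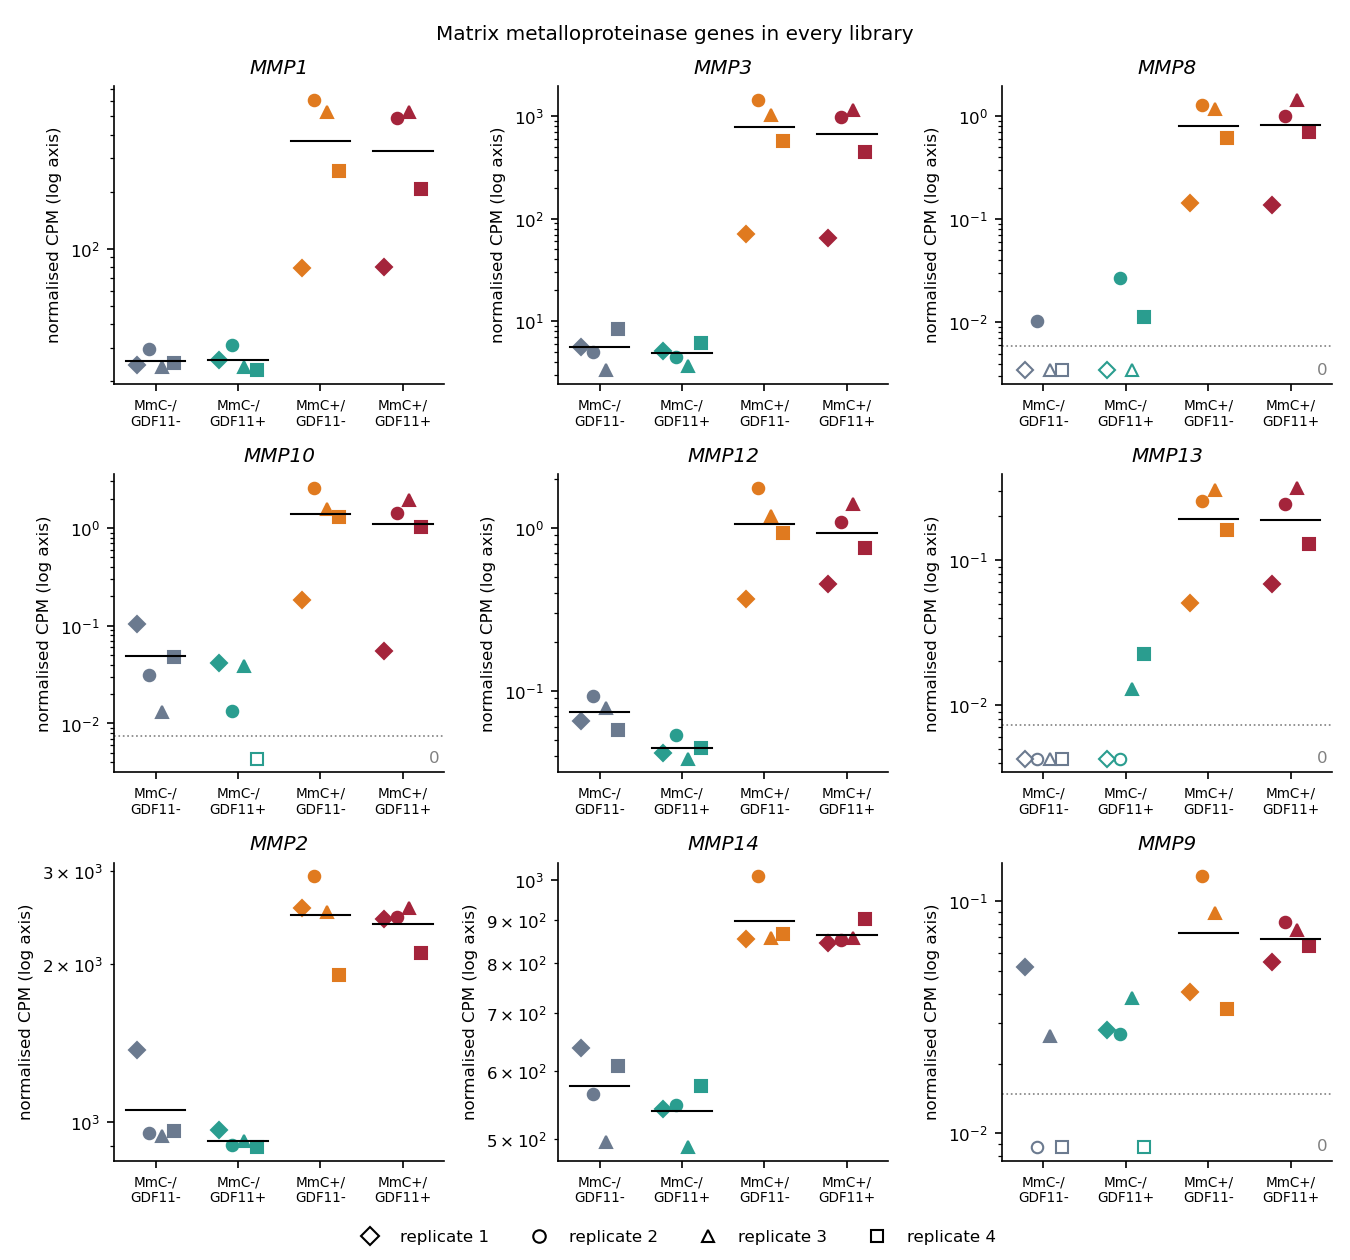
Each panel plots a gene's normalised CPM (log axis) in the 16 libraries by group. Symbols give the replicate number, black lines the group mean where no library was at 0, and open symbols under the dotted line libraries with 0 counts. MMP1 and MMP3 sit at 22.8 to 30.8 CPM and 3.32 to 8.31 CPM in MmC- libraries and higher in every MmC+ library, with replicate 1 (diamonds) the lowest of the MmC+ libraries.

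MMP1 (ENSG00000196611, chr11:102789401-102798160, minus strand) encodes interstitial collagenase, which makes the first cut in fibrillar collagens. Its level was 24.3, 29.3, 23.8 and 24.9 CPM in MmC-/GDF11- replicates 1 to 4 and 78.9, 612, 523 and 258 CPM in MmC+/GDF11-. With GDF11 it was 25.7, 30.8, 23.7 and 22.8 CPM in MmC- and 79.9, 492, 524 and 207 CPM in MmC+ cells. The MmC- libraries were within a narrow range, while the MmC+ libraries spread widely, with replicate 1 the lowest in both groups. The fold change was 14.4 without GDF11 (log2 3.85, SE 0.60, adjusted p = 0.000123) and 12.7 with it (log2 3.66, SE 0.59, adjusted p = 0.000171). A fit added after seeing the data used the replicate number as a block and only the groups compared. MMP1 was then at log2 3.54 (SE 0.65, adjusted p = 0.0159) without and 3.38 (SE 0.60, adjusted p = 0.0124) with GDF11.

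MMP3 (ENSG00000149968, chr11:102835801-102843609, minus strand) encodes stromelysin-1, which cuts proteoglycans and fibronectin and activates other pro-MMPs. It stood at 5.52, 5.01, 3.32 and 8.31 CPM in MmC-/GDF11- and at 71.4, 1455, 1027 and 567 CPM in MmC+/GDF11- replicates 1 to 4. In the groups with GDF11 it stood at 5.14, 4.48, 3.60 and 6.09 CPM and at 64.8, 991, 1145 and 451 CPM. No MmC+ library fell within the MmC- range, and the MmC+ replicate 1 libraries were the lowest in both groups. MMP3 was 140-fold higher without GDF11 (log2 7.13, SE 0.96, adjusted p = 3.5e-05) and 137-fold higher with it (log2 7.10, SE 0.96, adjusted p = 3.53e-05). By fold change without GDF11 it ranked 28 of the 19103 genes tested. With the replicate number as a block and only the groups compared, MMP3 was at log2 6.68 (SE 1.28, adjusted p = 0.0217) without GDF11. With GDF11 it was at 6.62 (SE 1.16, adjusted p = 0.0126) in that fit.

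The remaining cluster genes were scarce. MMP10 (stromelysin-2, chr11:102770502-102780628) had 8, 3, 1 and 5 counts in MmC-/GDF11- and 18, 221, 141 and 112 counts in MmC+/GDF11-, and 3, 1, 3 and 0 against 4, 139, 281 and 95 counts with GDF11. Replicate 1 was again the lowest MmC+ library, and after scaling its MmC+/GDF11+ level of 0.0547 CPM lay close to the highest MmC-/GDF11+ level of 0.0417 CPM. The log2 fold change was 4.82 (SE 0.96, adjusted p = 0.000913) without and 5.55 (SE 1.09, adjusted p = 0.000793) with GDF11, and it was 5.75 and 6.35 when replicate 1 was left out of every group. MMP12 (macrophage elastase, chr11:102862736-102874982) had 5, 9, 6 and 6 against 36, 151, 106 and 81 counts without GDF11, and 3, 4, 3 and 4 against 33, 107, 207 and 71 counts with it. Its log2 fold change was 3.82 (SE 0.47, adjusted p = 1.04e-05) and 4.35 (SE 0.51, adjusted p = 6.62e-06), respectively.

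MMP8 (neutrophil collagenase, chr11:102711796-102727050) and MMP13 (collagenase-3, which cuts cartilage collagen, chr11:102942995-102955732) were nearly absent from the counts of MmC- cells. MMP8 had 0, 1, 0 and 0 counts in MmC-/GDF11- against 14, 110, 104 and 53 in MmC+/GDF11-, a ratio of summed counts of 275 (exact 95% interval 49.0 to 10910). With GDF11 it had 0, 2, 0 and 1 against 10, 98, 211 and 65 counts, a ratio of 97.7 (33.2 to 476). MMP13 had no count in MmC-/GDF11- and 5, 22, 27 and 14 counts in MmC+/GDF11-. Against a floor of 3 counts over the group it was 22.2-fold higher, and the lower end of the exact 95% interval was 17.6. With GDF11 it had 0, 0, 1 and 2 against 5, 24, 46 and 12 counts, a ratio of 22.1 (7.33 to 109). These intervals cover counting error only. In edgeR's test the adjusted p was 9.33e-05 and 0.000152 for MMP8 and 0.000372 and 0.00144 for MMP13. Both genes passed the filter through their MmC+ libraries, so these values are not read as support for the rise.

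MMP2 and MMP14 were abundant in every library. MMP2 (ENSG00000087245, chr16:55389700-55506691, plus strand) encodes gelatinase A, which digests denatured collagen and basement membrane collagen. It was at 1370, 952, 939 and 962 CPM in MmC-/GDF11- and at 2546, 2929, 2510 and 1904 CPM in MmC+/GDF11-, and with GDF11 at 966, 903, 922 and 896 CPM against 2429, 2448, 2553 and 2092 CPM. Replicate 1 was the highest of the MmC-/GDF11- libraries, and it was not the lowest MmC+ library in either group. MMP2 was 2.34-fold higher without (log2 1.23, SE 0.15, adjusted p = 7.84e-06) and 2.58-fold higher with GDF11 (log2 1.37, SE 0.15, adjusted p = 2.89e-06).

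MMP14 (ENSG00000157227, chr14:22836560-22849041, plus strand) encodes the membrane-bound MT1-MMP, which activates pro-MMP2 at the cell surface. Its level was 638, 563, 496 and 607 CPM in MmC-/GDF11- and 853, 1011, 856 and 867 CPM in MmC+/GDF11-. With GDF11 it was 541, 547, 489 and 575 CPM against 846, 851, 856 and 901 CPM. The groups did not overlap, and the spread within each was small. MMP14 was 1.56-fold higher (log2 0.64, SE 0.10, adjusted p = 9e-05) and 1.60-fold higher (log2 0.68, SE 0.10, adjusted p = 4.9e-05). Tested against a 2-fold change, MMP14 did not pass in either comparison (adjusted p = 1 in both), and MMP2 did not pass without GDF11 (adjusted p = 0.203).

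MMP9 and MMP11 did not pass the filter and were not tested. MMP9 (gelatinase B, chr20:46008908-46016561) had 4, 0, 2 and 0 counts in MmC-/GDF11-, 2, 2, 3 and 0 in MmC-/GDF11+, 4, 11, 8 and 3 in MmC+/GDF11- and 4, 8, 11 and 6 in MmC+/GDF11+. The summed counts were 4.24 times as high after mitomycin C without GDF11 (exact interval 1.71 to 12.6), with overlapping libraries, and 3.16 times as high with it (1.36 to 8.55). MMP11 (stromelysin-3, chr22:23768226-23784316) had 0 counts in all 16 libraries. All of its exonic 31-base words also lay on alternate contigs of the hg38 file used here, against at most 1.4% for the other 9 genes, and the treatment of reads with several placements is not given in the sources used here. Its level is therefore not assessed.

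**Figure D2:**
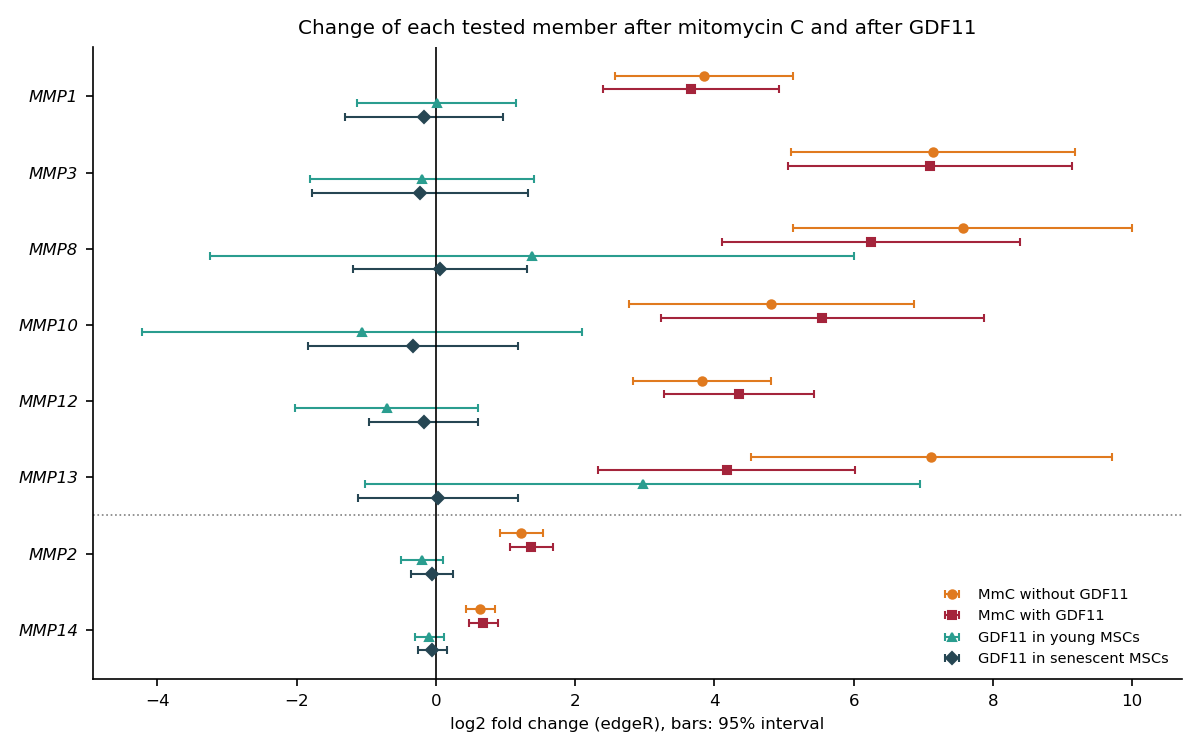
Log2 fold changes of the 8 tested genes (points) with 95% intervals (bars) from edgeR without a replicate block for 4 comparisons, cluster genes above the dotted line. The mitomycin C intervals all lie above 0, from 0.43 at the lowest bound of MMP14, and the GDF11 intervals all include 0. Values of MMP8 and MMP13 depend on how counts near 0 are treated.

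GDF11 was added to ask whether it shifts the transcriptome of young or senescent cells. None of the 8 tested genes was called by edgeR in young cells, in senescent cells or in the interaction of mitomycin C and GDF11, where 0% of all genes were called in each. DESeq2 and limma-voom called none of the 8 either, and the lowest unadjusted p among them in edgeR without the block was 0.132 (MMP13 in young cells). Over all genes, 226, 96 and 172 had an unadjusted p below 0.05 in the 3 comparisons. These are 1.18%, 0.503% and 0.9%, fewer than the threshold would give if no gene differed. With the replicate number as a block in all 16 libraries, edgeR gave MMP13 an unadjusted p of 0.0414 in young cells and 0.0432 in the interaction. MMP13 had at most 2 counts in a young library, and it was not called. In senescent cells the 95% interval of the log2 change was -0.36 to 0.25 for MMP2, -0.26 to 0.15 for MMP14, -1.31 to 0.96 for MMP1 and -1.79 to 1.32 for MMP3 when the replicate numbers were not used. Same-numbered senescent libraries deviated together, and a fit of the 8 senescent libraries with the replicate number as a block, added after the results were known, gave narrower intervals. They were -0.16 to 0.08 for MMP2, -0.15 to 0.06 for MMP14 and -0.53 to 0.11 for MMP3. MMP1 was at -0.15 (interval -0.28 to -0.02, unadjusted p = 0.0298, adjusted p = 1), was lower in 2 of 4 pairs and did not pass the correction. In this fit 0 of the 8 genes and 0% of all genes were called, and 474 genes had an unadjusted p below 0.05. The same fit of the young libraries tested 4 of the MMP genes and called none of them. Of 17325 genes in that fit, 1 was called and 657 had an unadjusted p below 0.05. MMP12 was lower in every MmC-/GDF11+ library (3 or 4 counts) than in any MmC-/GDF11- library (5 to 9 counts), as were 0.513% of genes, with a log2 change of -0.71 (SE 0.62, unadjusted p = 0.272).

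Levels of different genes were compared per kilobase of exon (CPM per kb). In MmC-/GDF11- cells the order was MMP2 (224 ± 44.6, SD, n = 4), MMP14 (125 ± 13.3), MMP1 (9.34 ± 0.929) and MMP3 (2.99 ± 1.12), with no overlap between neighbours, followed by MMP12 (0.0404 ± 0.00857), which overlapped MMP10 (0.0279 ± 0.0223). In MmC+/GDF11- cells MMP3 (421 ± 321) came next to MMP2 (525 ± 90.1) and before MMP14 (194 ± 16.5) and MMP1 (134 ± 89.3), and each of these overlapped the next. MMP10 (0.799 ± 0.560), MMP12 (0.582 ± 0.318), MMP8 (0.232 ± 0.153) and MMP13 (0.0679 ± 0.0392) came after a gap, and each of these overlapped the next. The order in MmC+/GDF11+ cells was the same. Counts of the 6 cluster genes were between 0.00280 and 0.00348% of a library in MmC-/GDF11- and between 0.0138 and 0.206% in MmC+/GDF11-. MMP2 and MMP14 together made up between 97.8 and 98.5% of the counts of the 10 genes in MmC-/GDF11- and between 65.5 and 95.7% in MmC+/GDF11-, where replicate 1 held the highest share. In bulk RNA, more expressing cells and more RNA per cell cannot be told apart.

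Whether the cluster genes changed more than MMP2 or MMP14 was tested on the difference of log2 CPM within each library, with limma across all genes and a prior count of 2, which understates the change of the scarce genes. MMP1 and MMP3, the cluster genes with at least 10 counts in every library, rose relative to MMP2 without and with GDF11, where 3.84% and 3.26% of genes were called higher. They also rose relative to MMP14 in both comparisons, where 7.71% and 7.18% of genes were called higher. The other 4 cluster genes were called in each of these comparisons too, but they passed the filter through their MmC+ libraries, and nothing is read from their count. MMP3 gained 5.32 on MMP2 on the log2 scale without GDF11 (SE 0.76, adjusted p = 2.33e-06) and 5.12 with it (SE 0.76, adjusted p = 2.96e-06). MMP1 gained 2.25 (SE 0.51, adjusted p = 0.000413) and 1.95 (SE 0.51, adjusted p = 0.00139). MMP13 gained 1.84 (SE 0.48, adjusted p = 0.00157) and 1.29 (SE 0.48, adjusted p = 0.0176), values that depend on the prior count and give no order among the scarce genes. The libraries overlapped for MMP10 in both comparisons and for MMP1 and MMP13 with GDF11. Leaving out MmC-/GDF11+ replicate 1, MmC+/GDF11+ replicate 2 or MmC+/GDF11+ replicate 3 each left 5 of the 6 called relative to MMP2 with GDF11, and a prior count of 5 left 5 of the 6 in both comparisons. MMP2 itself rose relative to MMP14, by 0.59 (SE 0.15, adjusted p = 0.00172) and 0.68 (SE 0.15, adjusted p = 0.000478).

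**Figure D3:**
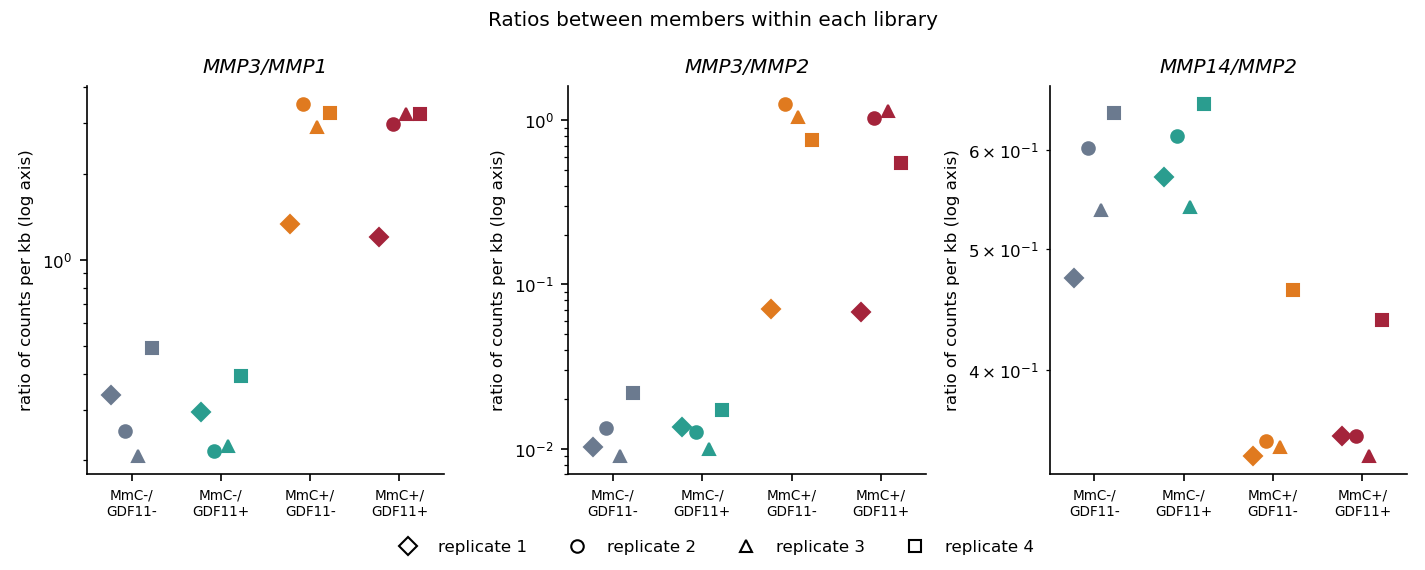
Ratios of counts per kb between a pair of genes within each of the 16 libraries (log axes), by group, with symbols for the replicate number. MMP3/MMP1 lies between 0.206 and 0.492 in MmC- libraries and between 1.20 and 3.51 in MmC+ libraries, and MMP3/MMP2 is lowest in replicate 1 among the MmC+ libraries.

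Within the cluster, MMP3 was below MMP1 in MmC- libraries and above it in MmC+ libraries. Per kb, MMP3 was at 0.206 to 0.492 of MMP1 in MmC-/GDF11- and at 0.215 to 0.394 in MmC-/GDF11+ libraries. It was at 1.34, 3.51, 2.90 and 3.24 times MMP1 in MmC+/GDF11- replicates 1 to 4 and at 1.20, 2.97, 3.23 and 3.22 times in MmC+/GDF11+. All 8 MmC+ libraries thus lay above 1 and all 8 MmC- libraries below. This ratio was chosen after its values were seen, so no test of it is read here. Relative to MMP2 per kb, MMP3 was between 0.00896 and 0.0219 in MmC-/GDF11-, against 0.0712 in replicate 1 and 0.756 to 1.26 in replicates 2 to 4 of MmC+/GDF11-.

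MMP3 and MMP10 have similar sequences, and 6.6% of the exonic 31-base words of MMP10 also occur in MMP3 transcripts. MMP10 counts were 0.162 to 0.269% of those of MMP3 per kb in MmC+/GDF11- and 0.417 to 1.98% in MmC-/GDF11- libraries, so the counts of MMP10 may hold reads of MMP3, and their part was not tested. WTAPP1, a pseudogene transcribed from the opposite strand, overlaps 8.1% of the exon length of MMP1 and 1.7% of that of MMP3, and SLC12A5-AS1 in the same way overlaps 18.4% of MMP9. The strand setting of the counting is not given in the sources used here, so reads of such partners cannot be told apart here where they overlap.

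The genes around the cluster on chromosome 11 were examined too. The 46 other annotated genes within 1 Mb of the outermost cluster genes include MMP7, MMP20 and MMP27, which did not pass the filter. Of the 46, 14 passed. 2 were higher and 1 was lower after mitomycin C without GDF11, and 3 were higher and 1 lower with it, shares no higher than the 22.9% and 23.4% of all genes called higher. Both genes higher without GDF11 were also higher with it. BIRC3, an inhibitor of apoptosis and a known NF-κB target, rose from a mean of 5.89 to 38.6 CPM (log2 2.71, adjusted p = 4.39e-07). WTAPP1, the only tested gene between the cluster genes, rose from 0.0264 to 0.314 CPM (log2 3.42, adjusted p = 0.00527), with the strand limit given above. It too was tested because of its MmC+ libraries. DCUN1D5, a cofactor of cullin neddylation and the nearest tested gene beyond MMP13, was lower (log2 -0.24, adjusted p = 0.0414). BIRC2, which lies beside BIRC3, was at a log2 change of -0.02 (adjusted p = 0.876).

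**Figure D4:**
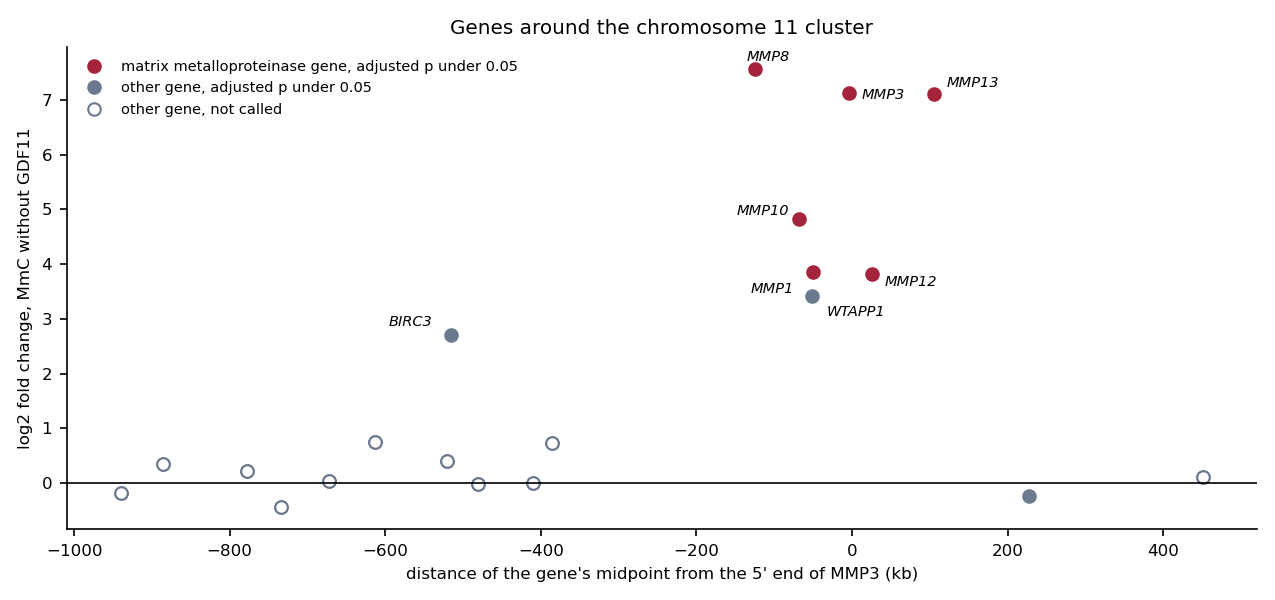
Log2 fold change after mitomycin C without GDF11 (y axis) of each tested gene within 1 Mb of the cluster against the distance of its midpoint from the 5′ end of MMP3 in kb (x axis). The 6 MMP genes stand at 3.82 to 7.57, WTAPP1 at 3.42 and BIRC3 at 2.71, and the open circles are genes that did not pass the test. MMP8, MMP10, MMP12, MMP13 and WTAPP1 passed the filter through their MmC+ libraries, so nothing is read from their height together. MMP8 and MMP13 were near 0 counts in MmC-/GDF11- libraries, so their values are fitted and not bounds.

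Inducers of MMP genes were largely higher in the same libraries. 5 of 6 tested inducers rose after mitomycin C both without and with GDF11, where 22.9% and 23.4% of all genes were called higher. The median log2 change of the 6 inducers was 5.44 and 5.06, against -0.01 over all genes tested in each. IL1B, a cytokine known to induce MMP1 and MMP3, was at 4.87, 4.37, 4.53 and 4.32 CPM in MmC-/GDF11- and at 75.1, 366, 293 and 175 CPM in MmC+/GDF11- (log2 5.65, SE 0.52, adjusted p = 1.03e-06). Replicate 1 was the lowest MmC+ library, and replicate 2 the highest, as for MMP1 and MMP3. IL1A rose by 5.23 (SE 0.48, adjusted p = 1.07e-06), IL6 by 7.38 (SE 0.72, adjusted p = 1.96e-06) and LIF by 6.39 (SE 0.74, adjusted p = 9.61e-06) on the log2 scale, while BSG, the matrix metalloproteinase inducer basigin, rose by 0.28 (SE 0.10, adjusted p = 0.0252). TGFB1, which is known to induce some MMP genes and to restrain others, was at -0.16 (adjusted p = 0.286), and TNF and OSM did not pass the filter.

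Of 13 transcription factors known at MMP promoters, 3 were higher, 1 was lower and 9 did not pass the test without GDF11, and 5 were higher and 1 was lower with it. Over all genes 22.9% and 23.4% were called higher and 22.4% and 23.3% lower, so the count of factors that were higher without GDF11 is near the share over all genes. The AP-1 subunits FOSB (log2 2.34, SE 0.44, adjusted p = 0.000558) and FOSL2 (0.57, SE 0.12, adjusted p = 0.00141) and the NF-κB subunit RELA (0.41, SE 0.09, adjusted p = 0.00165) rose. RUNX2, known at the MMP13 promoter, fell by 0.98 (SE 0.16, adjusted p = 0.000123). JUN and FOSL1 were at log2 changes of 0.09 and -0.13 and did not pass. Without replicate 1 the count was 5 higher and 1 lower in both comparisons, with no share over all genes given for that fit.

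The inhibitors were in part higher as well. TIMP1, TIMP2, TIMP3 and TIMP4 rose and A2M, a protease trap of plasma, fell in both comparisons, while RECK, a membrane-anchored inhibitor, did not pass. Of all genes, 22.9% and 23.4% were called higher and 22.4% and 23.3% lower. Without replicate 1 all 6 inhibitors were called in both comparisons, 5 higher and 1 lower, with no share over all genes given for that fit. The median log2 change of the 6 inhibitors was 0.48 and 0.47. TIMP1 was at 1356, 983, 767 and 571 CPM in MmC-/GDF11- and at 2118, 3538, 2685 and 1949 CPM in MmC+/GDF11- (log2 1.48, SE 0.26, adjusted p = 0.000285). TIMP3 rose by 0.78 (SE 0.14, adjusted p = 0.000394), TIMP4 by 0.54 (SE 0.13, adjusted p = 0.00297) and TIMP2 by 0.43 (SE 0.13, adjusted p = 0.015), and A2M fell by 1.44 (SE 0.34, adjusted p = 0.00253).

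The next list holds activators of pro-MMPs and their regulators, inhibitors of activation included, so its count does not measure activation. Of its genes, 7 of 8 tested rose in both comparisons, where 22.9% and 23.4% of all genes were called higher. Without replicate 1, 8 of 8 rose, with no share over all genes given for that fit. The median log2 change was 1.16 and 1.10 over all replicates. The genes that rose include the plasminogen activators PLAT (1.09, SE 0.16, adjusted p = 5.37e-05) and PLAU (0.50, SE 0.17, adjusted p = 0.0236), the receptor PLAUR (1.19, SE 0.21, adjusted p = 0.000335) and the proprotein convertase FURIN (0.55, SE 0.10, adjusted p = 0.000312). They also include SERPINE2 (2.83, SE 0.22, adjusted p = 1.4e-07), which encodes a protease inhibitor that opposes such activation. The plasminogen gene PLG did not pass the filter.

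Substrates of the MMPs moved both ways. Of 12 tested matrix genes, FN1 (fibronectin, log2 0.76, SE 0.19, adjusted p = 0.00384) and VCAN (versican, 0.50, SE 0.15, adjusted p = 0.0116) rose without GDF11. ACAN (aggrecan) fell by 2.42 (SE 0.79, adjusted p = 0.0204), COL1A1 by 1.38 (SE 0.54, adjusted p = 0.0485) and ELN (elastin) by 0.96 (SE 0.35, adjusted p = 0.0354). With GDF11 the count was 2 higher and 1 lower. The counts without GDF11 are near the shares over all genes, 22.9% higher and 22.4% lower. All of these counts rested on replicate 1: without that number, 3 were higher and 8 lower in both comparisons. No share over all genes is given for that fit, so whether other genes gained calls alike cannot be told here. The median of the 12 was -0.52 without and -0.57 with GDF11.

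Of 13 MMP genes outside the 10, 5 passed the filter. MMP15 and MMP17, both membrane-bound, rose by 0.81 (SE 0.21, adjusted p = 0.00553) and 0.74 (SE 0.19, adjusted p = 0.00465) on the log2 scale without GDF11 and also rose with it. MMP16, MMP19 and MMP24 did not pass the test in either comparison. Of all genes, 22.9% and 23.4% were called higher. Without replicate 1, 2 of the 5 were higher and 2 lower without GDF11, and 2 higher and 1 lower with it. No share over all genes is given for that fit. Of the 50 tested genes of the 6 lists, edgeR called 0 for GDF11 in young cells, 0 in senescent cells and 0 in the interaction, and 0, 0 and 0 had an unadjusted p below 0.05.

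MMP8, MMP9 and MMP12 are known products of neutrophils and macrophages, so markers of those cells were measured beside them. The 6 neutrophil markers (MPO, ELANE, FCGR3B, CSF3R, S100A8 and S100A9) summed to at most 0.0520 CPM in MmC-/GDF11- and 0.0558 to 0.161 CPM in MmC+/GDF11- libraries, and none passed the filter. The 8 macrophage and monocyte markers summed to 2.40 to 3.29 CPM in MmC-/GDF11- and 5.25 to 6.58 CPM in MmC+/GDF11-, with AIF1 at 0 in every library. CD14 and CD68 rose without and with GDF11. CD163 and ITGAM were called higher in both too, from 2 to 7 and 0 to 5 counts in MmC-/GDF11- libraries. They passed the filter through their MmC+ libraries, so nothing is read from their calls. PTPRC, which encodes the pan-leukocyte marker CD45, was at a log2 change of 0.63 (SE 0.26, adjusted p = 0.06) without GDF11 and rose by 0.90 (adjusted p = 0.00989) with it, and CSF1R was at 0.12 (adjusted p = 0.819) and -0.13 (adjusted p = 0.809). The 4 endothelial markers summed to 7.82 to 11.3 CPM in MmC-/GDF11- and 8.66 to 21.1 CPM in MmC+/GDF11-, with CDH5 lower and PECAM1 and VWF higher. KDR was called higher without GDF11, at 0 to 4 against 8 to 19 counts, but not with it (adjusted p = 0.131). It was tested because of its MmC+ libraries, so nothing is read from its call. The 4 epithelial markers summed to 48.7 to 82.3 CPM and 15.1 to 17.8 CPM, nearly all of it KRT14 (47.9 to 81.4 CPM and 14.4 to 16.8 CPM). The part of such cells in the MMP results was not tested.

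The cluster genes also varied together among the 8 MmC+ libraries, which are 4 replicate numbers in each of 2 groups and so hold fewer independent points. As a description, Pearson's r of log2 CPM over these 8 libraries was 0.986 for MMP1 and MMP3 and 0.891 to 0.992 over all pairs of cluster genes. Between a cluster gene and MMP2 it was 0.0632 to 0.267. Between a cluster gene and MMP14 it was 0.269 to 0.516. Over the 6 libraries without replicate 1, r was 0.988 for MMP1 and MMP3, 0.742 to 0.995 over all pairs of cluster genes, 0.779 to 0.928 with MMP2 and -0.08 to 0.556 with MMP14, so the low values with MMP2 rest on replicate 1 and those with MMP14 do not. Among 10970 protein-coding genes, those closest to MMP1 over the 8 libraries were PID1 (r = 0.997), FRMD3, IL1B, C12orf57 and CXCL1. Those closest to MMP3 were ID3 (r = 0.9995), PTGES, IL11, CXCL5 and ETV4. Over the 6 libraries without replicate 1, r of these 10 genes ran from 0.973 (CXCL1 with MMP1) to 0.998 (FRMD3 with MMP1). ID3 (log2 change -0.18, adjusted p = 0.742) and C12orf57 (0.22, adjusted p = 0.251) did not pass the test after mitomycin C without GDF11. The other 8 were higher, as were 22.9% of all genes. The 10 were picked from these same MmC+ libraries, so nothing is read from that count.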

How the data were processed

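Poly(A) RNA of 4 groups of ASC52telo cells, with 4 replicates each, was sequenced with a directional kit. Alignment by the authors used HISAT2 2.2.1 and hg38, and featureCounts 2.0.1 gave the counts per GENCODE gene. The deposited values are raw counts per gene. Pair counting, the strand setting and the treatment of reads with several placements are not given in the sources used here. The 10 genes and all gene lists were chosen with earlier results of these data known.

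Identifiers were matched to GENCODE v44, and 142 of 60649 had no match. Genes were kept by filterByExpr of edgeR (minimum count 10), which left 19103, and scaled by TMM. The main test was edgeR 4.0.16's robust quasi-likelihood test, two-sided, on all 16 libraries, fitting a mean for each group without a block, with Benjamini-Hochberg adjustment over all genes and a threshold of 0.05. Ratios to MMP2 and MMP14 were tested with limma 3.58.1 on log2 CPM with a prior count of 2. Intervals of count ratios are exact (Clopper-Pearson). R 4.3.3 was used, and the steps were tested on simulated data. Alternatives were another filter, RLE and upper-quartile scaling, only the groups compared, a replicate block, DESeq2 1.42.0, limma-voom, a test against a 2-fold change, other prior counts, each library left out and replicate 1 left out. Leaving replicate 1 out of the list counts, and a block within the groups compared, were added after seeing the data.

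No label says that a replicate number marks a shared day or batch. The study mentions batch effects and names no library. Deviations of same-numbered libraries from their group means correlated at 0.113 or more in every pair for mitomycin C without GDF11. For GDF11 in senescent cells they correlated at 0.448 or more. Replicate numbers could thus be read as pairs there, but the SEs, intervals and adjusted p of the main test do not use them. Values of MMP1 and MMP3 within pairs are given beside those of the main test. In the other comparisons the lowest pair was at 0.0293 (mitomycin C with GDF11) and 0.0982 (GDF11 in young cells). Genes named are the 10 MMP genes, members of the lists, up to 4 genes near the cluster and the 5 genes closest to MMP1 and to MMP3. The values of 1 gene counted in these lists are not reported here.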

Additional observations from a re-analysis of the deposited data

Results flagged for a closer look

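In 31 sets of 4 libraries (a tested gene in a group), 3 libraries lay far from the other 3 of their group by Dixon's test, which chance alone does in about 1 of 20 sets. MMP2 in MmC-/GDF11- replicate 1 was at 1370 CPM, and the nearest library was at 962 CPM. MMP14 in MmC+/GDF11- replicate 2 was at 1011 CPM, and the nearest was at 867 CPM. MMP8 in MmC-/GDF11- replicate 2 was at 0.0104 CPM, which is 1 count, while the other 3 libraries had 0.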

How the results depend on the processing

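Of the log2 changes of single genes under an alternative, 771 kept their direction and side of the threshold and 3 did not, and none reversed. Of the counts of called genes, 195 stayed close to the value reported, those of 5 in place of 6 relative to MMP2 among them, and 2 did not. Counts over the gene lists are not part of this tally and are given in the report. With at least 10 counts required in every library, 4 genes were tested and 4 were called after mitomycin C in each comparison in place of 8, since the other 4 were not tested. The 3 single values, of MMP2 and MMP14 against a 2-fold change, stand in the report. With the replicate number as a block, 8 and 8 genes were called after mitomycin C without and with GDF11, and 0 with GDF11 in young and senescent cells and in the interaction. No share over all genes is given for that fit, so these counts only show whether a call changed. The block thus changed no call of these genes, and MMP3 was at a log2 change of 6.63 (adjusted p = 0.000306). With the block and only the groups compared, an alternative added after seeing the data, 7 of 7 and 6 of 6 genes tested were called after mitomycin C without and with GDF11. In these fits 8989 of 18054 and 9275 of 17819 genes were called in either direction. MMP8, MMP12 and, without GDF11, MMP10 were tested because of their MmC+ libraries, so nothing is read from the counts. MMP3 was at a log2 change of 6.68 (adjusted p = 0.0217) and 6.62 (adjusted p = 0.0126). With only the groups compared, MMP13 without GDF11 and MMP10 and MMP13 with GDF11 were not tested. Without MmC-/GDF11- replicate 2 the fitted log2 change of MMP8 was 9.16. With GDF11, that of MMP8 was 7.24 without MmC-/GDF11+ replicate 2, and that of MMP13 was 5.09 without MmC-/GDF11+ replicate 4. By limma-voom without GDF11, MMP8 was at 6.30 and MMP13 at 4.83, and with GDF11 MMP3 was at 6.44. All stayed called. MMP8, MMP9, MMP10, MMP12 and MMP13 rest on few counts, which limits their precision.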
